A study of Mus musculus with 8 samples.

Results

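The NLRP3 inflammasome and interleukin-1 (IL-1) genes were described as a set of 10, chosen by name from the count table: Nlrp3, Aim2, Pycard, Casp1, Casp4, Gsdmd, Il1b, Il1a, Il18 and Il1rn. All 10 were among the 56748 genes listed, and 9 passed the filter on low counts that kept 11222 genes; Il1a did not. RNA was sequenced from spleen monocytes sorted as Ly6Chigh, the surface phenotype of classical monocytes in mice, at day 7 after an aneurysm was induced. The 4 wild-type (WT) and 4 Olfr2 knockout (KO) libraries, numbered 1 to 4 in each genotype, were all from animals with an induced aneurysm, so that no untreated group was compared. Olfr2 encodes an olfactory receptor, and its signalling in vascular macrophages has been linked to NLRP3 and IL-1, which is the question asked of these genes here. The age and sex of the animals, the method of induction, the make of the knockout and whether each library came from a separate animal are not stated in the labels used here. The p-values therefore measure the spread between these libraries, which may be technical.

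An inflammasome is a cytosolic complex in which a sensor, such as NLRP3 or the DNA sensor AIM2, recruits the adaptor ASC (gene Pycard) and through it caspase-1. Caspase-1 cuts the precursors of IL-1beta and IL-18 into their active forms and cuts gasdermin D, whose free fragment makes pores in the plasma membrane. Caspase-4 of the mouse, also known as caspase-11, senses lipopolysaccharide in the cytosol and cuts gasdermin D as well. In monocytes the transcripts of Il1b and Nlrp3 are induced through Toll-like receptors and NF-kB, a step called priming, while activation itself acts on proteins and leaves no direct trace in RNA counts.

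Total counts lay between 16111725 and 21728794 per library. The 8 classical monocyte markers checked, among them Ly6c2, Ccr2 and Lyz2, were present in every library and together made 111000 to 120000 CPM (the count scaled per-million by the library total) in WT and 112000 to 128000 CPM in KO. Olfr2 had 0 counts in all 8 libraries, which allows up to 0.138 to 0.186 CPM by library for counting error only, so that its level cannot check the genotype labels. Each count column also carries a number, in the 1600s for WT 1, WT 2, KO 1 and KO 2 and in the 1700s for WT 3, WT 4, KO 3 and KO 4; what it stands for is not stated, and these are called the 1600 and 1700 series. KO 1 and KO 2 stood apart from the other 6 libraries in markers of other cells. The summed level of 14 neutrophil markers was 2400 and 3390 CPM there against 597 to 1100 CPM elsewhere. S100a8 was the most abundant of them in KO 1 and KO 2 (770 and 1460 CPM). In the other 6 libraries Mmp8 (224 to 647 CPM) and Cd177 (286 to 419 CPM) made most of the sum. For 9 dendritic cell markers the sum was 120 and 89.8 CPM in KO 1 and KO 2 against 247 to 556 CPM elsewhere. Cd209a was the most abundant of these 9. In sorted bulk samples fewer cells of a type and less RNA per cell cannot be told apart. Nor can other cells be told apart from expression of such markers by the sorted monocytes themselves.

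The stretches of 250 bases before the transcription start are shown for 4 members that lie in neighbouring pairs, because the levels within each pair differed. Il1b and Il1a are on chromosome 2 and both are read from the minus strand, and Casp1 and Casp4 follow each other on the plus strand of chromosome 9. The windows come from RefSeq on GRCm38.p6, where 9 of the 10 members matched with 13 windows in all. They run over chr2:129371140-129371389 (Il1b), chr2:129309973-129310222 (Il1a), chr9:5298267-5298516 (Casp1) and chr9:5308599-5308848 (Casp4, 1 of its listed starts), each printed 5′ to 3′ on the gene's own strand. Capitals mark matches to TATAAA, the core of a TATA box, and to an NF-kB pattern, GGGNN followed directly by TTTCC, on either strand.
Il1b: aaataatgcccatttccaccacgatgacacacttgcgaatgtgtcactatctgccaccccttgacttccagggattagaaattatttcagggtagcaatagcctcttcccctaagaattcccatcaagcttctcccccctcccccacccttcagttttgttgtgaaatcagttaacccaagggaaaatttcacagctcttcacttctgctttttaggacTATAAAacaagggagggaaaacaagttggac
Il1a: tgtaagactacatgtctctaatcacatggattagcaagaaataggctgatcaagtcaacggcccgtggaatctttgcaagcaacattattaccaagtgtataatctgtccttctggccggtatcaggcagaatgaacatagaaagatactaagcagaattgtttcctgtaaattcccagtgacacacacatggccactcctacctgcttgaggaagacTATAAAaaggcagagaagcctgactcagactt
Casp1: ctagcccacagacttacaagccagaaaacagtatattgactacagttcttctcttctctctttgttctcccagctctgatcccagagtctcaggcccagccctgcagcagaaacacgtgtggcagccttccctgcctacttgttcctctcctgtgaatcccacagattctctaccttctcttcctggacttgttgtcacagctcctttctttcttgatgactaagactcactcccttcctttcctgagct
Casp4: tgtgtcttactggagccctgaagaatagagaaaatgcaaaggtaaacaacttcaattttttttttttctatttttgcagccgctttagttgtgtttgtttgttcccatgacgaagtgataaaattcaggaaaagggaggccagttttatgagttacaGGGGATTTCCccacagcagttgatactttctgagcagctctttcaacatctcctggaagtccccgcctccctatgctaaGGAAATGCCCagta

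The letters TATAAA began 31 bases before the start of Il1b and 32 bases before that of Il1a, and 12.4% of the 32851 windows of this length held them on either strand. The only other member window with them was that of Il18, on the reverse strand and 175 bases before the start. The NF-kB pattern was in 3 of the 13 member windows, both windows of Casp4 with 2 matches each and 1 window of Il1rn, against 1.41% of all windows. The Casp4 matches lay 93 and 14 bases before 1 start and 104 and 25 bases before the other. They are the same letters at the same spacing, so that 1 stretch was counted in both windows and the 3 windows stand for 2 genes. The window of Casp1 held neither. GAGGAAG, a core that the monocyte factor PU.1 can bind, was in 4 of the 13 member windows, those of Nlrp3, Aim2, Pycard and Il1a, against 10.6% of all windows. TGANTCA, an AP-1 pattern, was in 2 of 13 (Il1rn and Il1a) against 6.75%, and TTGCNNAA, a C/EBP pattern, in 1 of 13 (Pycard) against 9.56%. An interferon-stimulated element, GAAANN followed directly by GAAA, was in 0 of 13 against 2.98%. The motifs were chosen with the sequences in view, their matches do not overlap one another in the printed windows, and a match describes letters in a window, not a bound site.

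Within these monocytes the 10 transcripts spanned a wide range of levels. Compared per kilobase of merged exon, Il1b and Casp1 were the highest in WT, with 191 ± 120 and 164 ± 21.7 CPM per kilobase (SD, n = 4). Il18 followed with 83.9 ± 13.2, Pycard with 70.9 ± 8.13 and Gsdmd with 54.8 ± 5.25. Il1rn stood at 18.1 ± 4.71, Casp4 at 9.88 ± 2.86 and Aim2 at 5.57 ± 0.902 CPM per kilobase. The sensor Nlrp3 was scarce, with 0.659 ± 0.12 CPM per kilobase (SD, n = 4), and ranked 8217 among 10969 tested genes of known length, whereas Il1b ranked 379 and Casp1 455. The order was the same in KO. In WT the ranges of Il1b and Casp1, of Il18 and Pycard, of Pycard and Gsdmd, of Il1rn and Casp4, and of Casp4 and Aim2 met, so that the order within each of these pairs is not beyond the spread. With the length of the longest transcript, chosen as an alternative after the data were seen, Gsdmd (72.7 CPM per kilobase) came before Pycard (70.9), and Il1rn and Casp4 rose to 39.2 and 19.3. Pycard, with 3800 bases of merged exon, had the same level by both lengths, so that this alternative could not move it. Before division by length its WT mean was 270 CPM, above the 246 CPM of Casp1. The place of Pycard thus rests on the length taken, and a shorter transcript would put it higher.

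**Figure D1:**
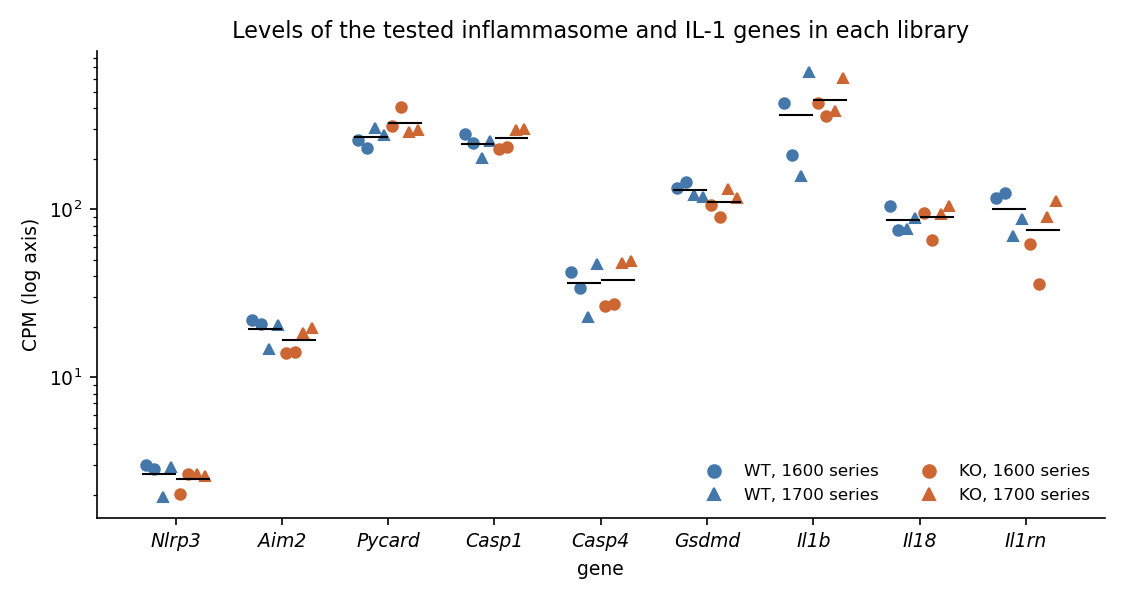
Level of the 9 tested genes in each library, in CPM on a log axis; circles are libraries of the 1600 series and triangles of the 1700 series, WT in blue and KO in orange, and each black bar is the mean of 4 libraries. For all 9 genes the 2 genotypes overlap, and Il1b has the widest spread, from 158 to 658 CPM in WT.

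The first comparison asked whether any of these transcripts differed between KO and WT. None of the 9 tested members passed the threshold of 0.05 on p-values from edgeR's quasi-likelihood test, adjusted by Benjamini-Hochberg over all genes, against 1.06% of all genes tested. Pycard alone had an unadjusted p under 0.05, 1 of 9, against 20.9% of all genes. DESeq2 and limma-voom also called 0 of the 9, where they called 6.24% and 0% of the genes they tested. The 2 genotypes overlapped in CPM for all 9 members, while 11.5% of all tested genes showed no overlap. The members' log2 changes, KO minus WT, were positive for 5 and negative for 4, with a median of 0.11 against -0.004 over all genes.

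Nlrp3 (ENSMUSG00000032691; GRCm38 chromosome 11, 59541568 to 59566956, plus strand), the sensor, had 3.00, 2.83, 1.95 and 2.92 CPM in WT 1 to 4 and 2.03, 2.67, 2.65 and 2.58 CPM in KO 1 to 4, from 35 to 56 counts per library. Every KO value lay inside the WT range. The log2 change was -0.02 ± 0.23 (SE, 95% interval -0.52 to 0.47, edgeR adjusted p = 0.963), which spans 0.697 to 1.39 times the WT level. Aim2 (ENSMUSG00000037860; chromosome 1, 173350879 to 173466040, plus strand), the sensor of cytosolic DNA, had 21.9, 20.8, 14.8 and 20.4 CPM in WT and 14, 14.1, 18.4 and 19.8 CPM in KO. KO 1 and KO 2 lay just below the lowest WT library. The log2 change of Aim2 was -0.16 ± 0.16 (95% interval -0.50 to 0.19, edgeR adjusted p = 0.605).

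Pycard (ENSMUSG00000030793; chromosome 7, 127989708 to 127993867, minus strand), the adaptor gene, had 260, 233, 306 and 279 CPM in WT and 315, 407, 288 and 295 CPM in KO. All 4 KO libraries were above the WT median, and KO 1 and KO 2 were above every WT library. Its log2 change of 0.35 ± 0.16 (SE) had a 95% interval of 0.01 to 0.69, with an unadjusted p of 0.0419 and an adjusted p of 0.221 (edgeR). It fell to 0.15 without KO 1 and KO 2 (edgeR adjusted p = 0.662). That fit set KO libraries of the 1700 series against WT libraries of both series. Within the 1700 series the log2 change of Pycard was -0.03. Pycard lies 21.0 Mb from Olfr2 on the same chromosome, and a part of flanking sequence carried with the knockout was not tested. An overlapping gene model on the other strand, Gm45205, had at most 1 count in any library.

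Casp1 (ENSMUSG00000025888; chromosome 9, 5298517 to 5307265, plus strand), the protease of the canonical inflammasome, had 280, 248, 202 and 254 CPM in WT and 228, 236, 298 and 300 CPM in KO. Its log2 change was 0.18 ± 0.12 (SE, 95% interval -0.08 to 0.45, edgeR adjusted p = 0.412). Casp4 (ENSMUSG00000033538; chromosome 9, 5308828 to 5336783, plus strand), its downstream neighbour, had 42.4, 34.1, 23.0 and 47.2 CPM in WT and 26.7, 27.3, 47.9 and 49.2 CPM in KO. For both caspases KO 3 and KO 4 were above every WT library, while KO 1 and KO 2 lay low within the WT range. The log2 change of Casp4 was 0.11 ± 0.24 (SE, 95% interval -0.42 to 0.65, edgeR adjusted p = 0.824). Per kilobase of merged exon Casp1 was at 164 and Casp4 at 9.88 CPM in WT, and Casp4 was at 19.3 with the length of the longest transcript. A relation of these levels to the letters of the printed windows was not tested.

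Gsdmd (ENSMUSG00000022575; chromosome 15, 75862327 to 75867408, plus strand), the gene of the pore-forming substrate, had 134, 146, 122 and 119 CPM in WT and 106, 90.4, 133 and 117 CPM in KO. KO 1, KO 2 and KO 4 were below the lowest WT library, and KO 3 was inside the WT range. The log2 change was -0.15 ± 0.12 (SE, 95% interval -0.41 to 0.10, edgeR adjusted p = 0.475). Gsdmd was the steadiest of the members, with an SD of log2 CPM within genotypes of 0.14 against a median of 0.29 over all tested genes.

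Il1b (ENSMUSG00000027398; chromosome 2, 129364570 to 129371139, minus strand) encodes the cytokine released after cleavage by caspase-1. It had 430, 210, 158 and 658 CPM in WT 1 to 4 and 429, 361, 386 and 608 CPM in KO 1 to 4, so that the highest WT library had 4.15 times the lowest and the highest KO library 1.69 times the lowest. All 4 KO libraries lay above the WT median and inside the WT range. The log2 change was 0.36 ± 0.46 (SE, 95% interval -0.72 to 1.44, edgeR adjusted p = 0.696), an interval from 0.608 to 2.72 times the WT level. Single libraries moved it: it was 0.84 without WT 4 and 0.12 without WT 3 (edgeR adjusted p = 0.221 and 0.905). The SD of Il1b within genotypes was 0.70 on the log2 scale, and 93.8% of tested genes had a smaller one. The antisense gene Il1bos, which shares 25 exon bases with Il1b, had 6 to 30 counts per library against 3011 to 13217 for Il1b.

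The genes were sought whose pattern over the 8 libraries was nearest to that of Il1b, by the root mean square distance of centred log2 CPM. They were Cd200r1 (0.23), Tlr4 (0.26) and Pinx1 (0.29), where the median distance over all genes was 0.72. Tlr4, the lipopolysaccharide receptor, had 32.7, 26.6, 14.2 and 53.3 CPM in WT and 32.0, 38.6, 35.7 and 44.5 CPM in KO. Cd200r1, an inhibitory receptor of myeloid cells, had 23.5, 12.8, 8.47 and 33.7 CPM in WT and 23.8, 26.8, 26.9 and 26.4 CPM in KO. As with Il1b, WT 3 was the lowest and WT 4 the highest of the WT libraries for both. For Nlrp3 the nearest were Slfn4 (0.06), Nrd1 (0.08) and Ddx19b (0.08), where the median distance was 0.34. These are the nearest of 11222 genes once models without an official symbol, such as Gm and Rik names, were passed over. Their distances are a description.

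Il18 (ENSMUSG00000039217; chromosome 9, 50554827 to 50581840, plus strand), the other cytokine that caspase-1 matures, had 105, 75.6, 76.7 and 88.7 CPM in WT and 95.1, 66.0, 93.8 and 105 CPM in KO. The genotypes lay over each other, and the log2 change was 0.13 ± 0.15 (SE, 95% interval -0.19 to 0.44, edgeR adjusted p = 0.646). Il1a (ENSMUSG00000027399; chromosome 2, 129299610 to 129309972, minus strand) encodes IL-1alpha, which acts on the same receptor as IL-1beta and needs no caspase-1. Its counts were 2, 0, 1 and 2 for WT 1 to 4 and 4, 2, 0 and 5 for KO 1 to 4, and 222 of its exon bases overlap a model on the other strand, Gm14023, which had 18 to 45 counts. A level of Il1a above a few counts per library was thus not seen in either genotype, and no fold is given. Il1b, its neighbour with the same TATA letters at nearly the same distance, had 25502 counts in the 4 WT libraries together, where Il1a had 5. Whether the letters relate to these levels was not tested.

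Il1rn (ENSMUSG00000026981; chromosome 2, 24336853 to 24351494, plus strand) encodes the IL-1 receptor antagonist, which blocks the receptor that IL-1alpha and IL-1beta share. It had 117, 126, 69.6 and 87.9 CPM in WT 1 to 4 and 62.5, 36.1, 89.6 and 112 CPM in KO 1 to 4. KO 1 and KO 2 were below every WT library, and KO 3 and KO 4 were inside the WT range. The log2 change over all libraries was -0.34 ± 0.30 (SE, 95% interval -1.02 to 0.34, edgeR adjusted p = 0.549), and it was 0.07 without KO 1 and KO 2 (edgeR adjusted p = 0.891). The fit without them set KO libraries of the 1700 series against WT libraries of both series. Within the 1700 series the log2 change of Il1rn was 0.34. Leaving out KO 2 alone gave -0.12 and leaving out KO 4 alone gave -0.60 (edgeR adjusted p = 0.821 and 0.256).

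**Figure D2:**
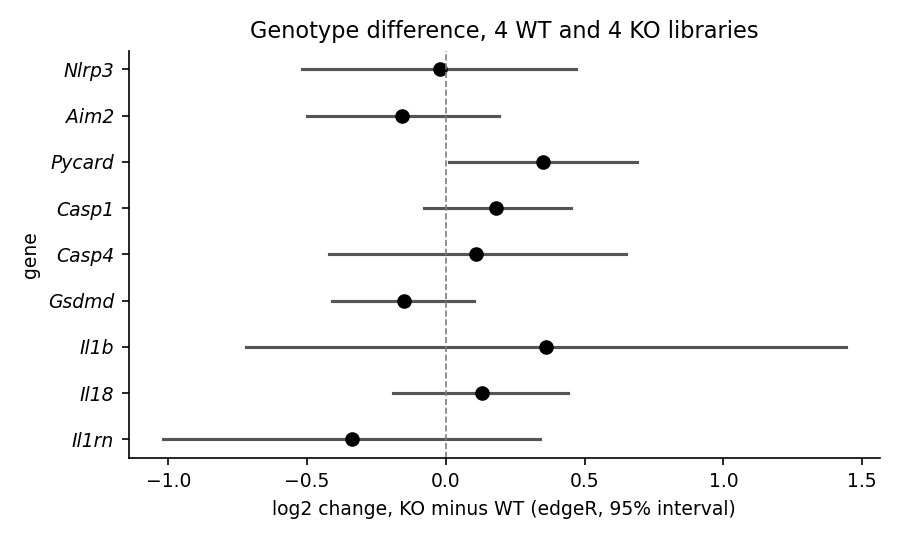
The log2 change of each tested member, KO minus WT, as a point with a 95% interval derived from edgeR's test (4 libraries per genotype). The interval of Pycard starts at 0.01 and the other 8 include 0, with the widest for Il1b (-0.72 to 1.44).

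The balance of antagonist and agonist was also taken as a log2 ratio of Il1rn to Il1b per kilobase in each library, which does not depend on scaling between libraries; it was added after the counts were seen. WT 1 to 4 gave -3.42, -2.27, -2.72 and -4.44, and KO 1 to 4 gave -4.32, -4.86, -3.64 and -3.97. WT 4, with the highest Il1b, lay among the KO libraries. The means were -3.21 ± 0.95 in WT and -4.20 ± 0.52 in KO (SD, n = 4 each), a difference of -0.98 (two-sided exact permutation p = 0.143), where the smallest possible p is 0.0286. Without WT 4 the difference was -1.39 and its exact two-sided permutation p was 0.0286, the smallest possible there. With any other single library left out it was between -1.17 and -0.67 (two-sided exact permutation p = 0.143 to 0.257). Within the series it was -1.74 (1600) and -0.23 (1700).

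The second comparison asked whether the genotype difference was the same in both column number series. For Il1rn it was not the same in sign: in the 1600 series both KO libraries (62.5 and 36.1 CPM) were below both WT libraries (117 and 126 CPM), and in the 1700 series both KO libraries (89.6 and 112 CPM) were above both WT libraries (69.6 and 87.9 CPM). The log2 changes were -1.15 ± 0.23 and 0.34 ± 0.18 (SE, edgeR adjusted p = 0.0664 and 0.304). The interaction, 1700 minus 1600, was 1.48 ± 0.32 for Il1rn (95% interval 0.79 to 2.18), with an unadjusted p of 0.000648 and an adjusted p of 0.0582 (edgeR). None of the 9 members passed this test, against 0.609% of the genes tested, and 2 of 9 (Il1rn and Pycard) had an unadjusted p under 0.05, against 15.6%. With DESeq2 the interaction of Il1rn passed (adjusted p = 0.00102; 5.55% of genes passed there), as it did with edgeR and no filter on low counts (adjusted p = 1.56e-07, with 3.04% of genes), where Pycard also passed (adjusted p = 0.0403). With limma-voom, where no member passed, the adjusted p for Il1rn was 0.0555, and with offsets for transcript length and GC content the interaction was 1.26 (edgeR adjusted p = 0.162). The KO libraries of the 1600 series are KO 1 and KO 2, which also stood apart in the markers. A genotype difference that depends on the series therefore cannot be told apart from KO 1 and KO 2 being unlike the rest.

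Pycard showed the opposite pattern, with log2 changes of 0.71 ± 0.16 (1600) and -0.03 ± 0.14 (1700) and an interaction of -0.75 ± 0.22 (SE, edgeR adjusted p = 0.128). Casp4 changed sign between the series (-0.34 ± 0.18 and 0.46 ± 0.30), and its interaction was 0.79 ± 0.38 (edgeR adjusted p = 0.352). Gsdmd and Aim2 were at -0.36 ± 0.14 and -0.44 ± 0.19 in the 1600 series and at 0.03 ± 0.15 and 0.10 ± 0.22 in the 1700 series. Casp1 was at -0.03 ± 0.13 and 0.37 ± 0.15. No member passed within either series alone (2 WT and 2 KO libraries each, edgeR), where 0.873% of genes passed in the 1600 series and 1.16% in the 1700 series. At an unadjusted p under 0.05 there were 4 of 9 members in the 1600 series (Il1rn, Pycard, Gsdmd and Aim2), against 18.8% of all genes, and 1 of 9 in the 1700 series (Casp1), against 22.2%.

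**Figure D3:**
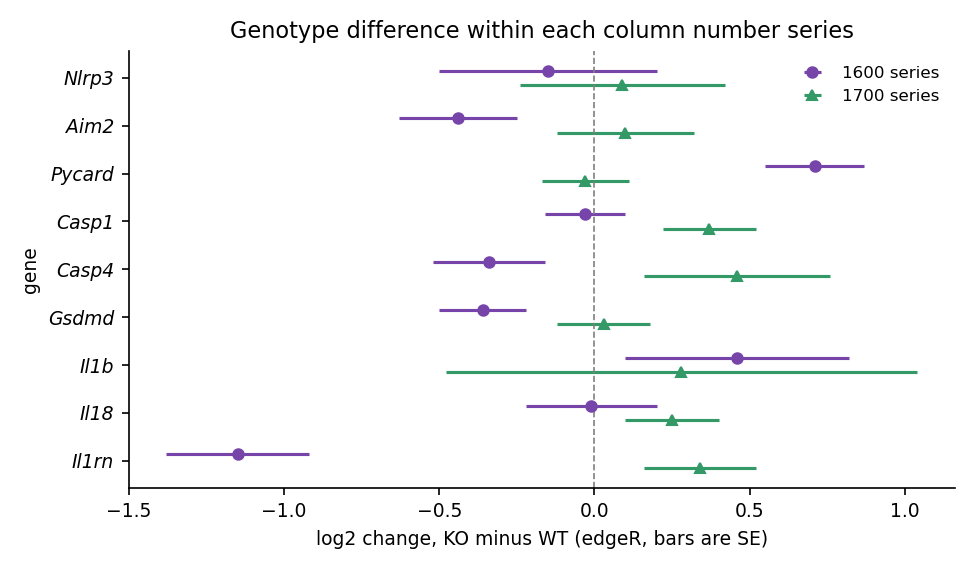
The log2 change, KO minus WT, of each tested member within the 1600 series (circles) and the 1700 series (triangles), with bars of 1 SE derived from edgeR's test (2 libraries per genotype in each series). Il1rn lies at -1.15 and 0.34 and Pycard at 0.71 and -0.03, and Casp4 at -0.34 and 0.46.

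The libraries with the lowest Il1rn were those in which markers of other cells moved. For S100a9, a calprotectin subunit gene of neutrophils, KO 1 and KO 2 gave 463 and 729 CPM, against 7.11 to 32.1 CPM in the other 6 libraries, and the granule gene Camp gave 62.4 and 39.3 CPM against 0 to 0.708 CPM. Ly6g, which defines mature neutrophils, reached 1.04 and 0.852 CPM there and at most 0.184 CPM elsewhere. In all 12 of the 14 neutrophil markers were higher in both KO 1 and KO 2 than in any other library. The share of all genes with this pattern was not counted. Of the 12, Mmp9 and Cxcr2 were near the counting floor, with small margins: Mmp9 had 0.114 CPM in KO 2 against 0.109 CPM in WT 1, and Cxcr2 0.795 against 0.621 CPM in WT 4. Cd177 went the other way, with 216 and 192 CPM there against 286 to 419 CPM, and Csf3r lay within the range of the others, with 28.4 and 29.4 CPM against 20.2 to 53.0 CPM. Of the dendritic cell markers, Cd209a, a lectin gene also found in a subset of monocytes, had 67.6 and 47.3 CPM in KO 1 and KO 2 against 168 to 467 CPM in the other libraries, while Xcr1, Clec9a and Zbtb46 were at or near 0 in all libraries. Cd209a and Batf3 were the 2 of 9 that were lowest in KO 1 and KO 2, and Flt3 lay within the range of the others, with 17.4 and 14.6 CPM against 11.4 to 17.8 CPM. The summed level of 8 nonclassical monocyte markers was 261 to 356 CPM in WT and 162 to 248 CPM in KO, all 8 with a negative log2 change. Pou2f2 alone passed the threshold (edgeR adjusted p = 0.0170), where 0.838% of all genes were called lower. Of the 8, 4 had an unadjusted p under 0.05, against 20.9% of all genes. Treml4, the most abundant of them in every library, was at -0.14 ± 0.17 (SE, edgeR adjusted p = 0.667). For 7 plasmacytoid dendritic cell markers the sum was 203 to 230 CPM in WT and 89.9 to 143 CPM in KO. Nearly all of it was Bst2 (edgeR adjusted p = 0.0377), with the defining Siglech at 0. The 8 T cell markers summed to between 0.708 and 1.85 CPM. Whether these markers came from other cells or from the sorted monocytes was not tested. Their relation to the levels of Il1rn, Pycard and Gsdmd was not tested either.

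**Figure D4:**
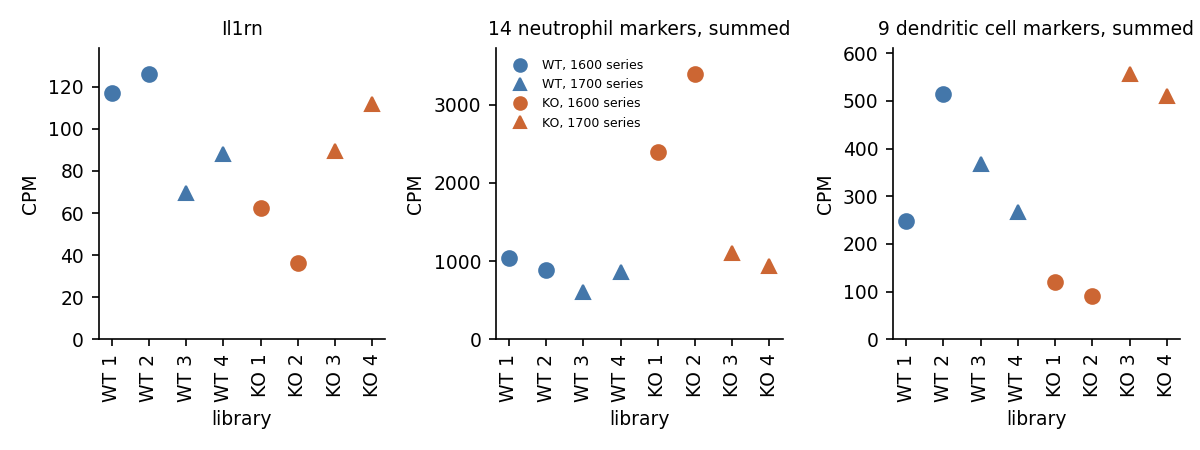
Level of Il1rn (left), of 14 neutrophil markers summed (middle) and of 9 dendritic cell markers summed (right) in each library, in CPM from 0; circles are the 1600 series and triangles the 1700 series, WT in blue and KO in orange. KO 1 and KO 2 have the lowest Il1rn (62.5 and 36.1 CPM), the highest neutrophil sums and the lowest dendritic cell sums. Outside KO 1 and KO 2 the neutrophil sum is mostly Mmp8 and Cd177.

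The third comparison took in the rest of the pathway, 86 symbols in 7 lists, of which 78 were listed and 63 passed the filter. Of these 63, 1 was higher in KO past the threshold and 0 were lower (edgeR, adjusted over all genes), against 0.223% and 0.838% of all genes. In all 10 of the 63 had an unadjusted p under 0.05, against 20.9% of all genes. DESeq2 called 3, against 6.24% of the genes it tested, and limma-voom 0, against 0%. The median log2 change was -0.06, with 28 positive and 35 negative. The gene that passed was Serpinb1a, which encodes a serpin that inhibits neutrophil serine proteases and has been described to restrain inflammatory caspases. It had 121, 126, 91.1 and 100 CPM in WT and 154, 165, 189 and 164 CPM in KO, each KO library above every WT library, and the log2 change was 0.70 ± 0.12 (SE) at an adjusted p of 0.0341 (edgeR). Its call was known when the list was made, and it did not pass with offsets for transcript length and GC content, nor when WT 1, WT 3, WT 4, KO 2 or KO 3 was left out in turn.

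Among the other sensors 9 of 13 were tested and 0 called. Nod1 and Naip2 were the highest of them per kilobase, with log2 changes of -0.08 ± 0.21 and 0.09 ± 0.15 (SE, edgeR adjusted p = 0.863 and 0.772); Naip2 belongs to a family of close paralogs whose reads may be shared. Nlrp1a, with the smallest p of the list, had 4.68, 6.30, 3.16 and 6.70 CPM in WT and 6.08, 5.51, 9.42 and 8.33 CPM in KO. Its log2 change was 0.57 ± 0.24 (SE, edgeR adjusted p = 0.206). Per kilobase Mefv, Naip5 and Nlrp1a were also above Nlrp3, whereas Nlrc4, which senses flagellin with the NAIPs, and Nod2 were below it, and Nlrp6 had 0 counts in every library.

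Of the genes of assembly and regulation, 15 of 15 listed were tested and 0 called. Brcc3, a deubiquitinase that acts on NLRP3, had 89.5, 74.0, 63.4 and 79.9 CPM in WT and 106, 110, 95.4 and 97.2 CPM in KO, each KO library above every WT library, and the log2 change was 0.50 ± 0.13 (SE, edgeR adjusted p = 0.0712). Ripk3, a kinase of necroptosis, was at 0.69 ± 0.20 (edgeR adjusted p = 0.0906), and both were called by DESeq2. Nek7, the kinase that NLRP3 needs, was at 0.01 ± 0.12, and P2rx7, the receptor for extracellular ATP, at 0.10 ± 0.18 (edgeR adjusted p = 0.958 and 0.772). Card19 and Txnip, the highest per kilobase, were both at -0.32 (edgeR adjusted p = 0.313 and 0.358).

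Among genes of pyroptosis and release 8 were tested, Serpinb1a among them. Ninj1, which ruptures the membrane of dying cells, had 318, 268, 433 and 322 CPM in WT and 267, 216, 201 and 237 CPM in KO. In CPM by library totals all 4 KO libraries lay below the lowest WT library. KO 1 did so by less than the gap between the TMM factors of KO 1 (0.969) and WT 2 (1.07). Separation in CPM, also seen for Serpinb1a and Brcc3, was found in 11.5% of all tested genes. The log2 change of Ninj1 was -0.48 ± 0.17 (SE, edgeR adjusted p = 0.135). It was called with no filter on low counts. Of the other IL-1 family ligands only Il36g passed the filter. KO 1 and KO 2 gave 5.33 and 7.84 CPM and the others 0.158 to 0.993 CPM (edgeR adjusted p = 0.189), and Il33, Il36a, Il36b, Il36rn and Il1f10 had 0 counts throughout.

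Of the receptors of the IL-1 family 5 of 10 were tested and 0 called. Il1r2, the decoy receptor, had 31.5, 9.29, 6.42 and 40.0 CPM in WT and 71.4, 52.2, 14.3 and 17.4 CPM in KO, with its highest values in KO 1 and KO 2 (log2 change 0.93 ± 0.81, SE, edgeR adjusted p = 0.553). Il1r1, the signalling receptor of IL-1, had 0 CPM in 7 libraries and 0.0579 CPM in KO 1. Sigirr, an inhibitory receptor, was at -0.34 ± 0.20 (edgeR adjusted p = 0.340). The decoy was thus measurable in all 8 libraries, and the signalling receptor was at or below the level that a count of 0 allows.

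MyD88 and NF-kB genes had 17 of 18 tested and 0 called, 12 of them negative. Nfkbia, the NF-kB inhibitor gene that NF-kB induces, had 728, 641, 651 and 921 CPM in WT and 562, 288, 476 and 771 CPM in KO (edgeR adjusted p = 0.356). Myd88, the adaptor of Toll-like and IL-1 receptors, was at -0.09 ± 0.16 and Tab2 at -0.70 ± 0.26 (SE, edgeR adjusted p = 0.789 and 0.157). Of the 8 priming receptors 8 were tested and 0 called. Cd14, the co-receptor for lipopolysaccharide, had 162, 131, 158 and 250 CPM in WT and 265, 246, 197 and 192 CPM in KO, with a log2 change of 0.43 ± 0.21 (edgeR adjusted p = 0.253), and Ly96 was at -0.08 ± 0.14 (edgeR adjusted p = 0.773). Within the 1600 series alone 2 pathway genes passed, Cd14 and Il36g, against 0.873% of all genes. Both were higher in KO, as were 73 of the 99 genes that passed there.

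**Figure D5:**
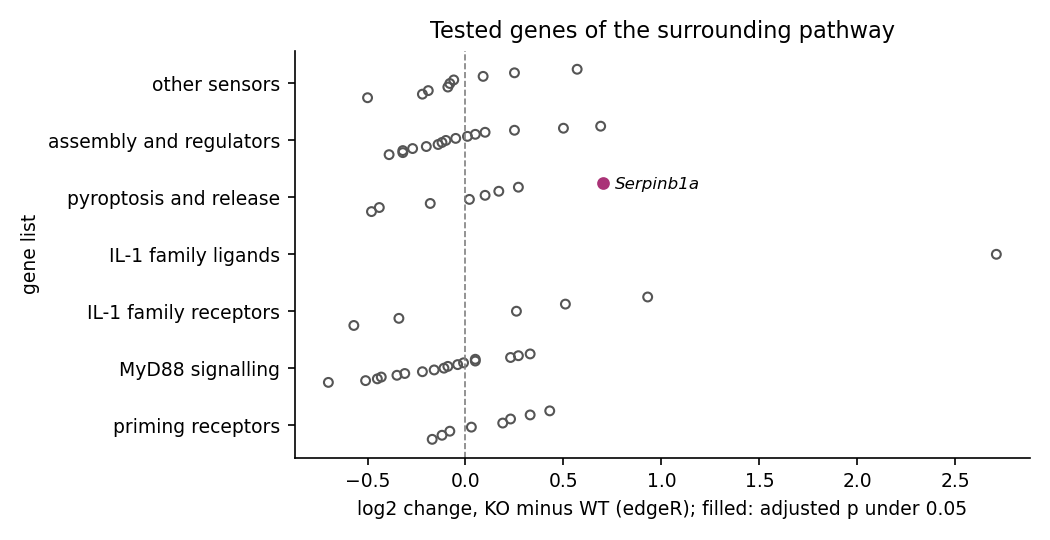
The log2 change, KO minus WT, of the 63 tested pathway genes in 7 lists (edgeR); filled points passed an adjusted p of 0.05 and open points did not, and height within a list only spreads the points. Serpinb1a is the 1 filled point, at 0.70, and Il36g lies farthest out at 2.71.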

How the data were processed

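Raw counts per gene for 8 libraries (SMART-Seq v4 cDNA of sorted cells, per the labels' protocols) are the values the authors deposited. Per the submitters' processing notes, build GRCm38 was used with HISAT2 2.0.5 and featureCounts 1.5.0-p3; annotation and strand setting were not given in the sources used here. Reads of overlapping genes or close paralogs therefore cannot be told apart. Limits from a count of 0 cover counting error only, since amplified reads that carry no molecular identifier are not separate molecules. Library pairs of 1 genotype differed by more than sampling noise (15 to 69.4 as chi-square over its degrees of freedom).

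Counts were tested with edgeR 4.0.16 (filterByExpr, TMM, robust quasi-likelihood; limma 3.58.1, DESeq2 1.42.0 and mgcv 1.9.3 for alternatives) in R 4.3.3 and checked on simulated counts. The fit of genotype by series kept 11978 genes. CPM uses library totals; lengths and positions come from GENCODE M21, which held 52073 of 56748 identifiers. Members and lists were chosen with earlier results of these data known. Named were all members, and per list genes past 0.05 or else the 2 most abundant per kilobase and the smallest p, and the 3 genes nearest in pattern to Il1b and to Nlrp3. Genes outside this rule (Nek7, P2rx7, Ripk3, Ninj1, Mefv, Naip5, Nlrc4, Nod2, Il1r1, single marker genes and genes at 0) were chosen after their values were seen. Alternatives covered scaling, filters, tools, a replicate block, the number series, length and GC offsets and left-out libraries.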

Additional observations from a re-analysis of the deposited data

Results flagged for a closer look

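Nlrp3 was far below the other 3 libraries of its genotype in WT 3 (1.95 CPM) and in KO 1 (2.03 CPM). These were 2 of 20 groups of 4 values checked, where chance gives about 1. The gene had 37 and 35 counts there.

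For 3 members both KO libraries lay on one side of both WT libraries in the 1600 series and on the other side in the 1700 series. This was read from CPM by library totals, and the share of all genes with such a crossing was not counted. For Casp1 the fit, which scales by TMM, gave a log2 change of only -0.03 ± 0.13 (SE) in the 1600 series. The interaction, 1700 minus 1600, was 1.48 on the log2 scale for Il1rn, 0.79 for Casp4 and 0.39 for Casp1 (edgeR adjusted p = 0.0582, 0.352 and 0.368), so that none passed the test of the difference.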

How the results depend on the processing

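In the comparison of KO with WT no member was called under any of 19 alternatives, and the smallest adjusted p was 0.0664 (edgeR, Il1rn within the 1600 series). The count over all genes, 119, was 742 with no filter, 761 with DESeq2, 0 with limma-voom, 275 with the number series as covariate, 7 without KO 1 and KO 2, 1 with offsets for transcript length and GC, and between 0 and 515 with 1 library left out. Pathway calls, 1 in the main fit, were 4 with no filter, 3 with DESeq2, 0 with limma-voom, the offsets or without KO 1 and KO 2, 2 within the 1600 series, and 0 to 1 with 1 library left out. The interaction count, 73, was 645 with no filter (Il1rn and Pycard among them), 407 with DESeq2 (Il1rn among them) and 8 with the offsets.

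Of 171 member values 20 changed sign. With the offsets Nlrp3 was at 0.01, Il18 -0.09, Casp1 -0.11 and Casp4 -0.19. Without KO 1 and KO 2, which leaves KO of the 1700 series against WT of both, Nlrp3 was at 0.02, Il1rn 0.07 and Aim2 0.02. Within the 1600 series Il18 was at -0.01, Casp1 -0.03 and Casp4 -0.34, and within the 1700 series Nlrp3 was at 0.09, Il1rn 0.34, Pycard -0.03, Gsdmd 0.03 and Aim2 0.10. With 1 library left out Nlrp3 ranged from -0.13 to 0.06 and Casp4 from -0.04 to 0.28. The causes were not tested. The title numbers did not pair the libraries (correlations of deviations -0.049 to 0.093); with them as a replicate block 269 genes and 0 members were called.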
